A study of Homo sapiens with 12 samples.

Results

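The HLA class I antigen presentation genes examined here are 9 genes chosen by name: HLA-B, HLA-C, HLA-E, B2M, TAP1, TAP2, TAPBP, PSMB8 and PSMB9. They are 9 of the 60669 Ensembl gene IDs in the count table, each was found by its ID without the version number, and all 9 were among the 18720 genes that passed the filter on low counts. RNA-seq was performed on 12 libraries from 6 human cell lines, which the paper describes as ovarian cancer lines. Each line gave 1 control (vehicle) library and 1 library treated with 8 µM quinacrine (QC, an antimalarial drug) for 6 h. HeyA8, SKOV3 and OV2008 are the chemosensitive lines, and HeyA8_MDR (carboplatin-resistant), SKOV3_TR (taxol-resistant) and OV2008_C13 (cisplatin-resistant) are their resistant isogenic partners. The 4 groups (sensitive control, sensitive QC, resistant control, resistant QC) therefore hold 3 lines each, and no line has a replicate of its own. Every p-value below rests on differences between lines. In the main QC comparisons the spread of the QC response was estimated over all 12 libraries together. The p-value and SE for sensitive or resistant lines thus do not measure the spread among those 3 lines alone.

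Class I molecules display short peptides from inside the cell to CD8 T cells. Proteins are cut by the proteasome, whose interferon-inducible catalytic subunits include PSMB8 and PSMB9, and the peptides are pumped into the endoplasmic reticulum by the TAP1 and TAP2 transporter. There TAPBP (tapasin) holds the transporter close to an empty heavy chain, and the loaded heavy chain (HLA-B, HLA-C or the less variable HLA-E, a ligand of NK cell receptors) travels to the surface with the light chain B2M. Many of these genes share interferon, NF-kB and NLRC5 control, and tumor cells are known for losing single steps of the pathway.

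On GRCh38.p14, 8 of the genes lie in the major histocompatibility complex on chromosome 6, from HLA-E (chr6:30489509-30494194) through HLA-C (chr6:31268749-31272092) and HLA-B (chr6:31353875-31357179) to the cluster of TAP2 (chr6:32821831-32838739), PSMB8 (chr6:32840717-32844679), TAP1 (chr6:32845209-32853704) and PSMB9 (chr6:32854192-32859851), and TAPBP (chr6:33299694-33314078). B2M lies on chromosome 15 (chr15:44711517-44718145).

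Total counts per library ranged from 17782556 to 30585059, and levels are given as CPM, read counts relative to the TMM-scaled library size. The keratins KRT8 and KRT18, epithelial markers, had at least 3258 counts in every library. In the HeyA8 and HeyA8_MDR libraries the epithelial markers EPCAM (at most 66 counts), CDH1 (at most 5) and KRT19 (at most 8) were near 0, while the endothelial cadherin CDH5 had 2014 to 4661 counts. Of 8 immune cell markers 0 passed the filter, and their summed level was between 0.182 and 2.54 CPM over the 12 libraries.

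The HeyA8_QC library stood apart. Among 285 genes at least 8-fold higher in the HeyA8_MDR control than in the HeyA8 control, the median gene of HeyA8_QC lay 67.7% of the way to HeyA8_MDR on the log2 scale, against 24.1% for 218 genes at least 8-fold lower. With a minimum of 10 CPM in the higher control, a limit chosen after the data had been seen, the values were 68.2% (32 genes) and 22.9% (75 genes). The corresponding values were 12.7% and 15.9% for HeyA8_MDR_QC, and 25.8% and 6.25% for OV2008_QC, which came to 3.41% and 7.83% with the minimum. For the other 3 QC libraries the medians lay between 0 and 3.79%. Whether HeyA8_QC holds RNA of HeyA8_MDR cells was not tested, and this touches each HeyA8 QC value below. The calls on the members and the list counts in QC comparisons that include HeyA8 are therefore also given without it where they change.

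**Figure D1:**
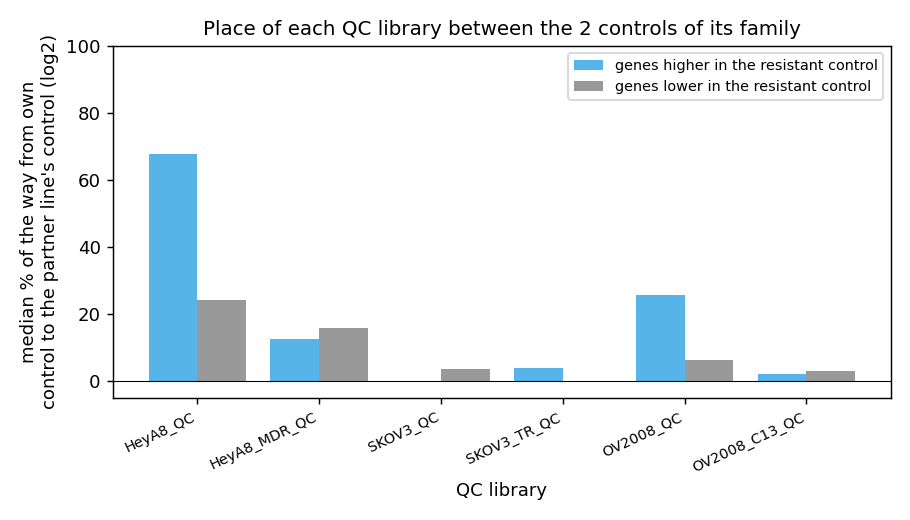
Bars show, for each QC library (x axis), the median percentage of the way from its own control to the control of its family partner on the log2 scale (y axis), over genes at least 8-fold higher (blue) or lower (grey) in the resistant control. HeyA8_QC reached 67.7% for the higher genes, while every SKOV3, SKOV3_TR and OV2008_C13 bar was at or under 3.79%.

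The promoters of 4 members are shown first, because the members are known to share regulatory motifs. Promoter windows from RefSeq on GRCh38.p14 were available for 8 of the 9 members. The windows ran from 250 bases before to 50 bases after an annotated start. For HLA-E no window was available. The 250 bases before the start are printed 5′ to 3′ on the gene's strand for the heavy chains HLA-B and HLA-C, whose levels differed most between lines, and for TAP1 and PSMB9, neighbours that are transcribed away from each other from starts 487 bases apart. Capitals mark the interferon-stimulated response element core (GAAANNGAAA), the gamma-activated site (TTCNNNGAA), the NF-kB site and the CCAAT box (CCAAT), each searched on both strands, and overlapping matches run together.
HLA-B, chr6:31357180-31357429, minus strand: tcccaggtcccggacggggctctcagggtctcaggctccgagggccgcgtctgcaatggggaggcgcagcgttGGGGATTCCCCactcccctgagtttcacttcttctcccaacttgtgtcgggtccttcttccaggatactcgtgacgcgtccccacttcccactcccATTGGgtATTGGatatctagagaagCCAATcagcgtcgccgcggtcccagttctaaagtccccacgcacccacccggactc
HLA-C, chr6:31272093-31272342, minus strand: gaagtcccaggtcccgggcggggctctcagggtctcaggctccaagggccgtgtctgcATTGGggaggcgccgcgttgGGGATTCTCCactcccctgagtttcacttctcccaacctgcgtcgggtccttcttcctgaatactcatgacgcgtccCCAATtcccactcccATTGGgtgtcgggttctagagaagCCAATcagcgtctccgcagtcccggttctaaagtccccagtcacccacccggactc
TAP1, chr6:32853705-32853954, minus strand: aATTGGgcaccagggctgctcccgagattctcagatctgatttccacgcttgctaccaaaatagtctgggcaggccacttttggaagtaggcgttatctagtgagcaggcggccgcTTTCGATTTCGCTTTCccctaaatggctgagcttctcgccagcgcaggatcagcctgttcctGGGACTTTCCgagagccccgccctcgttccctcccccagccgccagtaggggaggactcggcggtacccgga
PSMB9, chr6:32853942-32854191, plus strand: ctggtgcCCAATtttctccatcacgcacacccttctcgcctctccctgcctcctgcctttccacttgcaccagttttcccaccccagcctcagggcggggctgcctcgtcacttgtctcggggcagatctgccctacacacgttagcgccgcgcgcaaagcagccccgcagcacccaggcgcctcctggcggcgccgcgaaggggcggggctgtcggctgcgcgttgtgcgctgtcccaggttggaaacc

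The printed HLA-B and HLA-C stretches were identical at 226 of 254 aligned positions (89.0%). An NF-kB site was found in the windows of 5 of the 8 genes (HLA-B, HLA-C, B2M, TAP1 and TAPBP), and in 11.3% of 35116 promoter windows of the same length. The response element core was found in 5 of 8 (B2M, TAP1, TAP2, TAPBP and PSMB8), against 3.57% of all windows. The CCAAT box was found in 5 of 8 (HLA-B, HLA-C, B2M, TAP1 and PSMB9), against 34.6%, and the gamma-activated site in 2 of 8 (TAP1 and PSMB8), against 7.66%. The windows of TAP1 and PSMB9 overlap, and their CCAAT box is the same stretch of bases, counted for both genes. A gene was counted if any of its windows held the motif, with 10 windows for the 8 genes (2 each for TAP1 and PSMB8), whereas the shares are per window. The gamma-activated sites and the PSMB8 response element core lie in the windows of second starts, which are not printed. Only exact matches to the searched patterns were counted, so a window without a match may still hold a site that differs from the pattern. These matches describe letters in the window only.

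The heavy chains HLA-C and HLA-B had the widest ranges between lines. Without treatment HLA-C had 0 counts in HeyA8 and 2 counts in HeyA8_MDR, where 3 counts correspond to 0.133 and 0.156 CPM. The HLA-C control level was 9.04 CPM in SKOV3, 1.89 CPM in SKOV3_TR, 43.7 CPM in OV2008 and 70.4 CPM in OV2008_C13. In bulk RNA a lower level can be fewer expressing cells or less RNA per cell, which cannot be told apart. The HeyA8 family was at the floor, the SKOV3 family was low and the OV2008 family was high, with no overlap between families. Against a floor of 3 counts in the shallowest HeyA8 family library, HLA-C was at least 246-fold higher in OV2008, at least 396-fold higher in OV2008_C13 and at least 50.8-fold higher in SKOV3. In edgeR's quasi-likelihood test of family across the 6 control libraries, HLA-C passed the threshold (adjusted p = 0.0247). Without the HeyA8 family the adjusted p was 0.0555, and without the OV2008 family it was 0.116.

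HLA-B did not follow HLA-C. The HLA-B control level was 27.5 CPM in HeyA8, 42.5 CPM in HeyA8_MDR, 25.4 CPM in SKOV3, 3.96 CPM in SKOV3_TR, 23.2 CPM in OV2008 and 75.1 CPM in OV2008_C13. The 3 sensitive lines lay close together (25.4 ± 2.12 CPM, SD, n = 3) and the resistant lines were spread on both sides of them (40.5 ± 35.6 CPM, SD, n = 3). HLA-E had the narrowest range of the 9 members, from 42.4 CPM in OV2008 to 111 CPM in SKOV3, a 2.62-fold span. The family test gave adjusted p = 0.494 for HLA-B and 0.273 for HLA-E (edgeR's quasi-likelihood test).

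Class I genes are polymorphic and resemble one another, so counts on a single heavy chain are uncertain. In the GENCODE transcripts 6.32% of the 50-base words of HLA-C and 6.16% of those of HLA-E also occurred in another gene. For HLA-B the share was 44.4%, nearly all of it in the overlapping pseudogene DHFRP2 (43.3%), and for TAP2 it was 30.3%, all of it in the overlapping gene ENSG00000250264. B2M and PSMB8 shared 0 words with other genes. The part of sequence variation between lines in the HLA counts was not tested.

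B2M was the most abundant member per length of exon, with a median of 77.0 CPM per kb over the 6 control libraries, followed by HLA-E at 20.0 CPM per kb. PSMB8 (6.69), TAP1 (6.68) and HLA-B (5.72 CPM per kb) came next, then PSMB9 (3.20), TAPBP (3.15) and HLA-C (2.18). TAP2 was the lowest, at 0.135 CPM per kb and 13 to 49 counts per library, against 272 to 1309 counts for its partner TAP1. The low counts make the levels of TAP2 imprecise. Length here is that of all annotated exons of a gene together, 10357 bases for TAP2. Another gene on the same strand overlapped 19.5% of the exon bases of TAP2 and 30.7% of those of HLA-B. How reads in such overlaps were counted is not given in the sources used here. The effect on the places of TAP2 and HLA-B in this order was not tested. Neighbours in this order overlapped in their ranges over the 6 lines, except that HLA-E (14.5 to 38.0 CPM per kb) lay above PSMB8 (3.31 to 12.3 CPM per kb). With 1 library per line, neighbouring lines in the order of a gene's level could not be tested against each other.

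The B2M control level was 229 CPM in HeyA8, 241 CPM in HeyA8_MDR, 530 CPM in SKOV3, 102 CPM in SKOV3_TR, 239 CPM in OV2008 and 270 CPM in OV2008_C13. The 4 lines outside the SKOV3 family were nearly level, and the SKOV3 and SKOV3_TR lines held the highest and the lowest value. TAPBP separated the families instead: its control level was 70.6 CPM in SKOV3 and 53.8 CPM in SKOV3_TR, against 12.3 to 23.6 CPM in the other 4 lines. In edgeR's quasi-likelihood test of family TAPBP had an unadjusted p of 0.00668 and an adjusted p of 0.0509, and without the SKOV3 family the adjusted p was 0.970.

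The interferon-inducible proteasome subunits were lowest in the HeyA8 family. PSMB8 control levels were 12.6 and 11.5 CPM in HeyA8 and HeyA8_MDR, against 19.8 to 43.0 CPM in the other 4 lines. PSMB9 control levels were 4.87 and 3.74 CPM there, against 10.6 to 14.8 CPM elsewhere. Neither family difference passed (edgeR's quasi-likelihood test, adjusted p = 0.169 for PSMB8 and 0.157 for PSMB9). Over the 12 libraries PSMB8 and PSMB9 had a Pearson r of 0.929 on the log2 scale, given as a description because the libraries share lines. Over all members, 2 of 9 differed between families at an unadjusted p under 0.05 and 1 of 9 at an adjusted p under 0.05, while 36.7% and 12.9% of all 16091 genes tested did so.

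**Figure D2:**
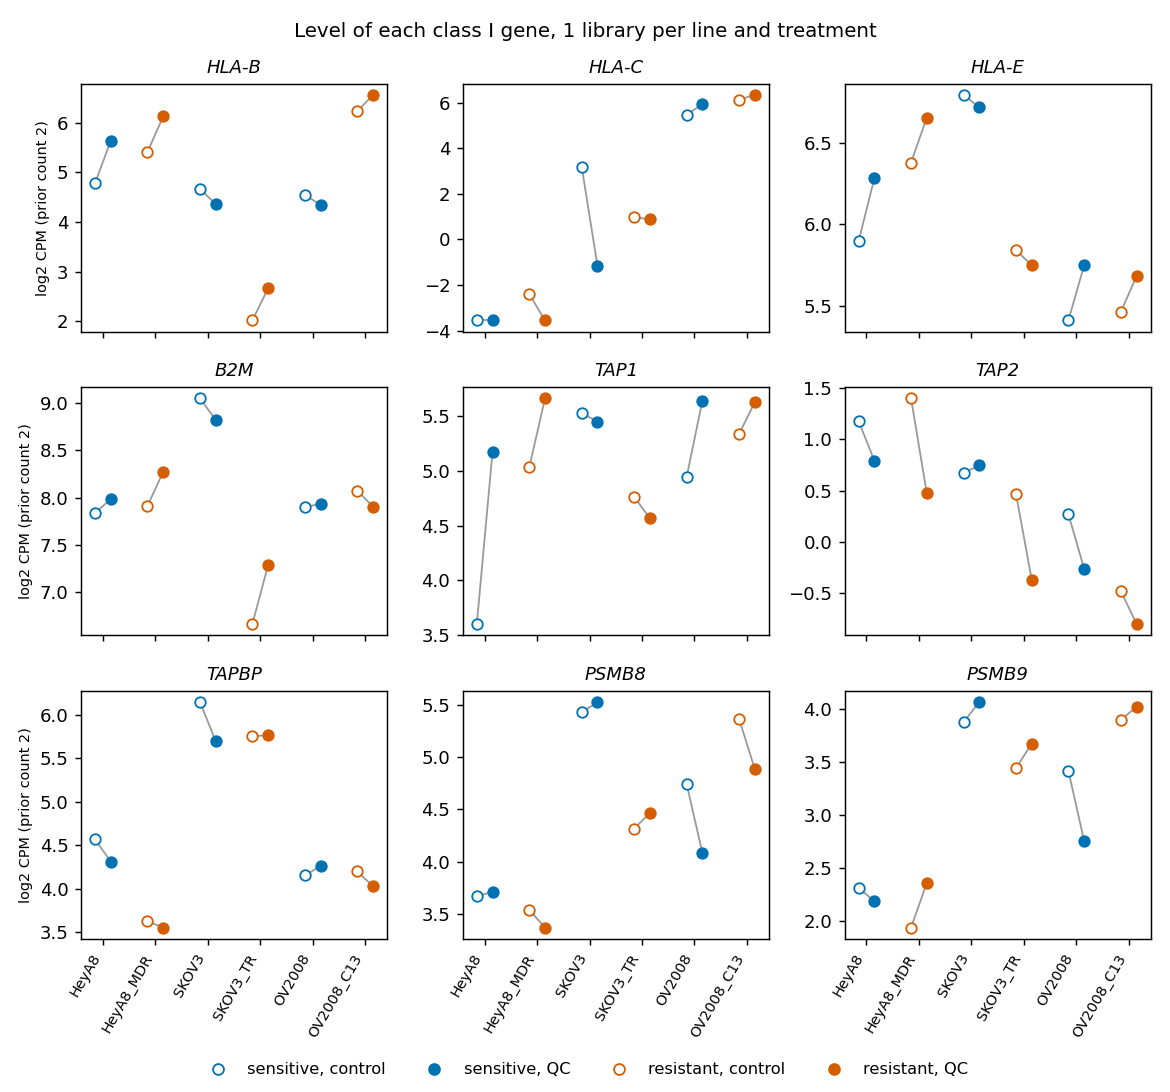
Each panel shows 1 gene, with the 6 lines on the x axis and log2 CPM (prior count of 2) on the y axis, which has its own range in each panel. Open circles are control and filled circles QC libraries, joined by line, blue for sensitive and orange for resistant lines. HLA-C runs from the floor in the HeyA8 family to 81.2 CPM in OV2008_C13 with QC, and TAP1 in HeyA8 shows the steepest rise of that gene.

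Resistant and sensitive lines were then compared within the families to ask whether resistance went with a different class I level. The direction differed from family to family. In the SKOV3 family 0 of the 9 members were higher in SKOV3_TR than in SKOV3 without treatment and the median log2 ratio was -0.96, against a median of 0.000408 over all genes. HLA-B was at 0.156 times its SKOV3 level, B2M at 0.192 times, HLA-C at 0.209 times and PSMB8 at 0.462 times. These 4 members of 9 were at least 2-fold lower, as were 13.6% of all genes, in a pair with 1 library per line. With QC 7 of the 9 were again lower in SKOV3_TR, with HLA-B at 0.306 times and B2M at 0.345 times the SKOV3 level, while HLA-C was 4.82-fold higher, with 8 counts in SKOV3_QC. The class I transactivator NLRC5, named after its values were seen, had 50.3 CPM in SKOV3 and 8.12 CPM in SKOV3_TR. Its control level was also lower in HeyA8_MDR (6.23 CPM) than in HeyA8 (15.9 CPM), where HLA-B, HLA-E, B2M and TAP1 were higher, and it was 14.6 CPM in OV2008 and 31.6 CPM in OV2008_C13.

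In the OV2008 family 8 of the 9 members were higher in OV2008_C13 than in OV2008 without treatment, with a median log2 ratio of 0.39, against 0.03 over all genes. With QC 4 of the 9 were higher and 5 lower, with a median of -0.011. HLA-B led with a 3.23-fold higher level, and 4.66-fold with QC. HLA-C, PSMB8 and PSMB9 were higher by 1.61-fold, 1.54-fold and 1.40-fold without QC, and all 3 were again higher with it. TAP2 was lower in both treatments. In the HeyA8 family the largest ratio was that of TAP1, with 12.1 CPM in HeyA8 and 32.6 CPM in HeyA8_MDR (2.71-fold), which came to 1.40-fold with QC. HLA-B, HLA-E and B2M were also higher in HeyA8_MDR in both treatments, and TAPBP was at 0.519 times the HeyA8 level without QC and 0.590 times with it.

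Across the 3 families 0 of 9 members passed in the comparison of resistant with sensitive controls (edgeR's quasi-likelihood test, unadjusted p under 0.05), where 1.90% of all genes were called higher and 1.87% lower. DESeq2 also called 0 of the 9. The 2 smallest p-values were those of TAPBP, with a log2 difference of -0.42 (SE 0.346, unadjusted p = 0.275, adjusted p = 0.975), and B2M, with -0.66 (SE 0.577, unadjusted p = 0.2997, adjusted p = 0.975). The B2M difference came to 0.14 without the SKOV3 family. HLA-B, which was lower in 1 resistant line and higher in the other 2, had a log2 difference of 0.03 with an SE of 0.944.

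**Figure D3:**
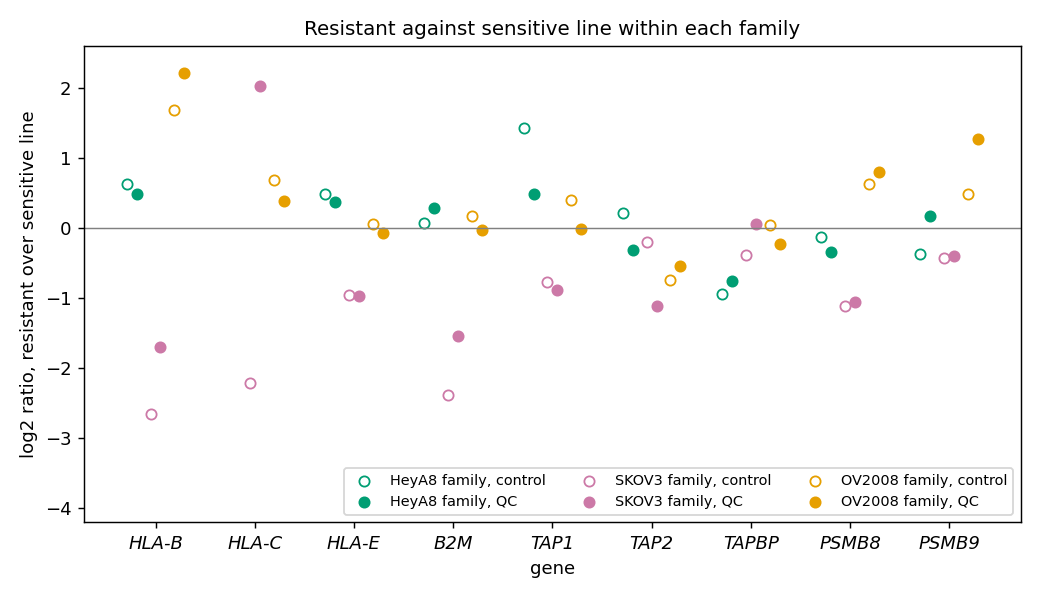
Points show the log2 ratio of the resistant to the sensitive line (y axis) for each gene (x axis), 1 color per family, open for control and filled for QC libraries. HLA-C in the HeyA8 family, with at most 2 counts, has no point. All 9 control ratios of the SKOV3 family lie below 0, and HLA-B in the OV2008 family lies highest at 2.21 with QC.

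QC was compared with control within each line to ask whether the drug changed class I transcripts in either group of lines. Between 3 and 5 members were higher with QC in each line, as were 46.0% to 49.5% of all genes. No line moved all 9 in 1 direction. TAP1 was the only member of 9 that passed in sensitive lines (unadjusted p under 0.05, higher), where 3.55% of all genes were called higher and 3.04% lower. The TAP1 level went from 12.1 to 36.0 CPM in HeyA8, from 46.1 to 43.5 CPM in SKOV3 and from 30.6 to 49.7 CPM in OV2008. It was thus higher in 2 of the 3 sensitive lines and nearly level in SKOV3. The fitted log2 change was 0.72 (SE 0.287, unadjusted p = 0.0276, adjusted p = 0.715, edgeR's quasi-likelihood test). The log2 ratios of the 3 sensitive lines had an SD of 0.83.

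The TAP1 call depended on which lines were included. Without HeyA8 the log2 change was 0.30 (unadjusted p = 0.296, adjusted p = 1, edgeR's quasi-likelihood test), and without OV2008 it was 0.74 with an unadjusted p of 0.0522 (adjusted p = 1). Without SKOV3 it was 1.12 (unadjusted p = 0.00252, adjusted p = 0.224, edgeR's quasi-likelihood test). In HeyA8_QC the TAP1 level was 110% of the way from the HeyA8 control to the HeyA8_MDR control on the log2 scale, HLA-B was at 136% and TAPBP at 27.1%. These members had the largest log2 differences between the controls, apart from HLA-C, which was at the floor. In HeyA8_QC the levels of HLA-E, B2M and PSMB9 also changed in the direction of HeyA8_MDR, and those of TAP2 and PSMB8 in the opposite direction. The part of that library's place in the TAP1 value was not tested.

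In resistant lines TAP1 went from 32.6 to 50.5 CPM in HeyA8_MDR, from 27.1 to 23.6 CPM in SKOV3_TR and from 40.3 to 49.3 CPM in OV2008_C13, and the change did not pass (log2 change 0.24, SE 0.280, unadjusted p = 0.404, adjusted p = 0.906, edgeR's quasi-likelihood test). Both SKOV3 family lines were thus slightly lower with QC while the other 4 lines were higher. Over all 6 lines the TAP1 log2 change was 0.48 (SE 0.202, unadjusted p = 0.0354, adjusted p = 0.292, edgeR's quasi-likelihood test), and TAP1 was again the single member called, in a comparison where 7.99% of all genes were called higher and 7.18% lower. By edgeR's quasi-likelihood test this call was lost without HeyA8 (log2 change 0.27, unadjusted p = 0.122, adjusted p = 0.548), without HeyA8_MDR (0.43, unadjusted p = 0.0864, adjusted p = 0.515) or without OV2008 (0.43, unadjusted p = 0.0694, adjusted p = 0.534).

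HLA-B was the member that passed in resistant lines. Its level went from 42.5 to 69.9 CPM in HeyA8_MDR, from 3.96 to 6.26 CPM in SKOV3_TR and from 75.1 to 94.4 CPM in OV2008_C13, so it was higher in 3 of 3 resistant lines, by 1.65-fold, 1.58-fold and 1.26-fold. The log2 change was 0.56 (SE 0.239, unadjusted p = 0.0365, adjusted p = 0.818, edgeR's quasi-likelihood test). HLA-B was the 1 member of 9 called, where 3.43% of all genes were called higher and 2.59% lower. The call was lost without HeyA8_MDR (log2 change 0.47, unadjusted p = 0.161, adjusted p = 1) and without SKOV3_TR (0.54, unadjusted p = 0.0939, adjusted p = 0.845, edgeR's quasi-likelihood test). Without OV2008_C13 a second member, B2M, was called as well (log2 change 0.48, unadjusted p = 0.0320, adjusted p = 0.694).

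In sensitive lines HLA-B went from 27.5 to 49.6 CPM in HeyA8, from 25.4 to 20.4 CPM in SKOV3 and from 23.2 to 20.3 CPM in OV2008. It was higher only in HeyA8 of these 3. The HLA-B log2 change there was 0.12 (SE 0.239, unadjusted p = 0.635, adjusted p = 0.957, edgeR's quasi-likelihood test) and came to -0.26 without HeyA8. The response of resistant minus that of sensitive lines was 0.45 for HLA-B (SE 0.337, unadjusted p = 0.209, adjusted p = 0.9998, edgeR's quasi-likelihood test) and 0.45 for PSMB9 (SE 0.363, unadjusted p = 0.239, adjusted p = 0.9998), which had lower p-values than the other 7. By this test 0 of 9 members differed in their QC response, where 0.566% of all genes were called higher and 0.593% lower. Without HeyA8 the HLA-B difference was 0.82 (unadjusted p = 0.0195, adjusted p = 1).

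HLA-C changed most in a single line. In SKOV3 it had 216 counts without QC and 8 counts with QC, or 9.04 and 0.363 CPM, a level of 0.0402 times the control. It went from 1.89 to 1.75 CPM in SKOV3_TR, from 43.7 to 61.9 CPM in OV2008 and from 70.4 to 81.2 CPM in OV2008_C13, and had 0 counts in both HeyA8 family QC libraries. SKOV3 therefore differed from the other 3 lines that had the transcript, with 1 library behind each value. Over the sensitive lines the log2 change was -1.37 (SE 0.873, unadjusted p = 0.145, adjusted p = 0.793, edgeR's quasi-likelihood test), and without SKOV3 it was 0.49.

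TAP2 was lower with QC in 5 of 6 lines, from 2.17 to 1.64 CPM in HeyA8, 2.55 to 1.30 CPM in HeyA8_MDR, 1.30 to 0.689 CPM in SKOV3_TR, 1.12 to 0.750 CPM in OV2008 and 0.632 to 0.490 CPM in OV2008_C13, and went from 1.51 to 1.59 CPM in SKOV3. With 13 to 49 counts behind each value, the log2 change in resistant lines was -0.76 (SE 0.469, unadjusted p = 0.131, adjusted p = 0.842, edgeR's quasi-likelihood test). TAP2 and TAP1 form 1 transporter, and in HeyA8, HeyA8_MDR, OV2008 and OV2008_C13 the TAP2 level was lower and the TAP1 level higher with QC.

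The remaining members did not pass in any QC comparison. B2M was between 0.856 times (SKOV3) and 1.54 times (SKOV3_TR) its control level, and HLA-E between 0.937 times (SKOV3_TR) and 1.31 times (HeyA8). TAPBP was between 0.734 times (SKOV3) and 1.08 times (OV2008). PSMB8 was lowest in the OV2008 family, at 0.632 times in OV2008 and 0.715 times in OV2008_C13, and PSMB9 was at 0.629 times in OV2008 and 1.35 times in HeyA8_MDR. The median of the 9 members' fitted log2 changes was -0.17 for sensitive lines (0.02 over all genes) and 0.14 for resistant lines (-0.01 over all genes). By line, the members' median log2 ratio was 0.096 in HeyA8, -0.085 in SKOV3 and 0.031 in OV2008. It was 0.32 in HeyA8_MDR, 0.0076 in SKOV3_TR and 0.13 in OV2008_C13. The fitted median of -0.17 is thus lower than the median in any single sensitive line.

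**Figure D4:**
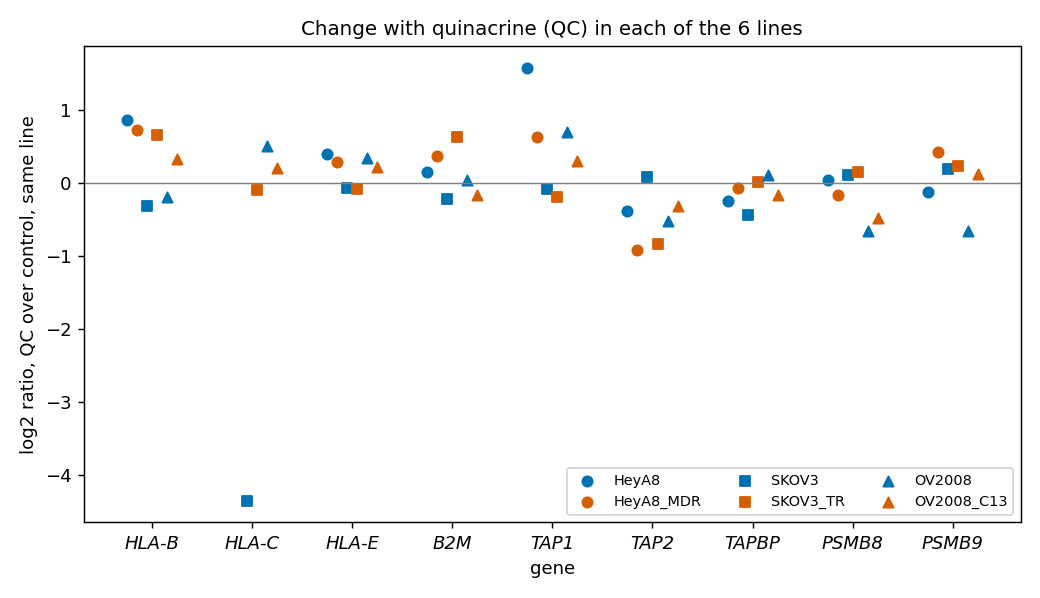
Points show the log2 ratio of QC to control (y axis) for each gene (x axis) in each line, blue for sensitive and orange for resistant lines, with 1 marker shape per family. HLA-C in SKOV3 lies at -4.35, TAP1 in HeyA8 is the highest point, and the 3 resistant lines lie above 0 for HLA-B.

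No member or other gene passed an adjusted p under 0.05 in the QC comparisons by edgeR's quasi-likelihood test, where 1234 genes had an unadjusted p under 0.05 in sensitive lines, 1128 in resistant lines, 217 in the difference and 2840 over all lines. DESeq2 with the same terms called 31, 0, 1 and 518 genes at an adjusted p under 0.05, of which 0 were members.

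Other genes of the pathway were counted from lists. Of 11 tested peptide loading, trimming and heavy chain genes, 0 were called higher and 1 lower with QC among sensitive lines (3.55% and 3.04% of all genes). Among resistant lines 0 were called either way (3.43% and 2.59% of all genes). Without HeyA8, 2 were called lower in sensitive lines, as were 1.99% of all genes. The 1 was ERAP2, an aminopeptidase that trims peptides in the endoplasmic reticulum. Its level went from 180 to 156 CPM in HeyA8, from 190 to 135 CPM in SKOV3 and from 10.3 to 7.36 CPM in OV2008, and in the resistant lines from 89.7 to 116 CPM, from 110 to 153 CPM and from 5.23 to 5.31 CPM. It was lower in each sensitive and higher in each resistant line, and the ERAP2 log2 difference between the responses was 0.70 (SE 0.248, unadjusted p = 0.0164, adjusted p = 0.9998, edgeR's quasi-likelihood test). ERAP2 was also lower in resistant than in sensitive controls, by a log2 difference of -0.91 (SE 0.260, unadjusted p = 0.0137, adjusted p = 0.975), and differed between families (adjusted p = 0.0103).

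Of 17 tested regulators of class I transcription, 1 was called higher and 0 lower in sensitive lines (3.55% and 3.04% of all genes), 1 higher and 1 lower in resistant lines (3.43% and 2.59%), and 3 higher and 2 lower over all lines (7.99% and 7.18%). Without HeyA8 the counts were 0 and 0 in sensitive lines and 2 higher and 2 lower over all lines. NFYB, a subunit of the factor that binds the CCAAT box, was higher with QC in 6 of 6 lines. In SKOV3_TR it was nearly level (53.9 to 56.1 CPM). Of 18720 genes, 773 were higher and 861 lower in all 6 lines. The NFYB log2 change over all lines was 0.63 (SE 0.170, unadjusted p = 0.00292, adjusted p = 0.169, edgeR's quasi-likelihood test). RFXANK, a subunit of the RFX complex at MHC promoters, was lower by the same test (log2 change -0.38, SE 0.119, unadjusted p = 0.00797, adjusted p = 0.192). Of the 3 constitutive catalytic proteasome subunits PSMB5, PSMB6 and PSMB7, which PSMB8 and PSMB9 can replace in part, 0 were called with QC. Of 10 class II genes 3 passed the filter and 0 of these were called with QC.

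Some interferon-stimulated genes outside the class I pathway fell with QC in sensitive lines at an unadjusted p under 0.05, and 0 at an adjusted p under 0.05 (edgeR's quasi-likelihood test). Of 15 tested, with a median log2 change of -0.83, 0 were called higher and 9 lower with QC in sensitive lines (3.55% and 3.04% of all genes). Without HeyA8, 7 were called lower, as were 1.99% of all genes. Their summed level was 158 to 214 CPM in the sensitive controls and 94.7 to 124 CPM in the sensitive QC libraries, with no overlap. In resistant lines 1 of 15 was called lower (2.59% of all genes). The summed levels there, 47.4 to 334 CPM and 35.8 to 322 CPM, overlapped. The antiviral tether BST2 had a log2 change of -0.94 in sensitive lines (SE 0.256, unadjusted p = 0.00373, adjusted p = 0.621, edgeR's quasi-likelihood test), and the guanylate-binding protein GBP1 had -1.18 (SE 0.345, unadjusted p = 0.00523, adjusted p = 0.621). In the difference between the responses 4 of 15 were called, all higher in resistant lines, where 0.566% of all genes were called higher. GBP2 was at 2.06 (SE 0.633, unadjusted p = 0.00722, adjusted p = 0.9998) and IFIT2 at 0.97 (SE 0.355, unadjusted p = 0.0189, adjusted p = 0.9998, edgeR's quasi-likelihood test). In the control libraries 0 of 15 were called higher and 2 lower in resistant lines, as were 1.90% and 1.87% of all genes. GBP2 had a log2 difference of -2.38 there (SE 0.785, unadjusted p = 0.0248, adjusted p = 0.975, edgeR's quasi-likelihood test) and OAS2 had -1.78 (SE 0.667, unadjusted p = 0.0389, adjusted p = 0.975).

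The genes whose pattern was most like the mean of the 9 members over the 12 libraries, by Pearson r of log2 CPM, were CLDN4 (0.953), SUSD2 (0.947), KCTD1 (0.943), HERC2P2 (0.942) and RIPPLY3 (0.940). HLA-C, with the widest range of the members (SD 4.02 on the log2 scale over the 6 control libraries), weighs most in that mean. The 12 libraries come from 6 lines, and these values are a description.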

How the data were processed

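Polyadenylated RNA from the 12 cultures was made into libraries with the TruSeq RNA kit. The authors deposited raw counts of reads per Ensembl gene. The submitters' processing notes name STAR 2.7.3a, HTSeq 0.6.1p1 and GRCh38.p13, while the paper's methods name TopHat and hg19 with HTSeq, and the strand setting is not given in the sources used here. Reads from genes that overlap on opposite strands, such as TAP1 and PSMB8-AS1, may therefore not be told apart. Symbols were taken from RefSeq for 58620 of 60669 IDs, and unpaired IDs held 0.132% of counts.

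Counts were fitted in R 4.3.3 with edgeR 4.0.16 (filterByExpr with a minimum count of 10 and a minimum total of 15, TMM, quasi-likelihood test, two-sided, Benjamini-Hochberg over all genes tested). QC effects had a term per cell line, with 4 residual degrees of freedom (5 for a single QC effect). Control libraries were fitted with family and resistance (16091 genes, 2 residual degrees of freedom). The deviations of a control library from its group mean correlated with those of the same line's QC library (r 0.893 to 0.929 across genes), and the pairing comes from the shared line. Log2 CPM used a prior count of 2, and no ratio is given where both libraries had at most 3 counts. Calls are unadjusted p under 0.05 unless stated. DESeq2 1.42.0 and other settings were alternatives. The fits were tested on simulated data.

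The text names all 9 members, the 2 genes of each other list with the smallest p in a comparison reported, the 5 most similar genes, and markers, with NLRC5 added after its values were seen. Some genes this rule picks are not reported here. The members and the lists were chosen with earlier results of these data known. Exon lengths and transcripts came from GENCODE (GRCh37-mapped) and promoters from RefSeq.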

Additional observations from a re-analysis of the deposited data

Results flagged for a closer look

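The log2 ratio of QC to control for HLA-C in SKOV3, -4.35, lay far from those of the other 3 lines in which HLA-C had counts, with a gap of 0.875 of the whole range. It rests on 216 and 8 counts in 1 library each. Chance flags about 1 in 20 such groups, and the ratios of all 9 members were examined.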

How the results depend on the processing

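Of 260 values recomputed under other settings, 210 kept their direction and their side of the threshold (for medians and counts, stayed within the spread between lines or 1.5 times the count), 28 medians or counts moved by more, 12 were no longer called, 7 became called and 3 changed sign. DESeq2, DESeq2's size factors and library size alone changed no direction among the members given a fitted change. The cause of the changes below was not tested, except that leaving out a line or a group lowers the number of libraries.

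The number of members called was 1 in sensitive lines and came to 2 without a filter, 0 without the replicate block and 0 with only the libraries of the group, where the share of all genes called was 6.59%, 4.84%, 0.160% and 6.11%. It was 1 in resistant lines and came to 2 with at least 10 counts in every library and 0 without the replicate block (6.03%, 9.14% and 0.123% of all genes). Over all lines it was 1 and came to 3 without a filter, 2 with at least 10 counts in every library and 0 without the replicate block (15.2%, 9.19% and 20.2% of all genes, then 117 of 18720 genes). Between families it was 2 and came to 4 with DESeq2, with library size alone and with no filter (36.7%, 44.7%, 37.4% and 25.6% of all genes). The median log2 change of the members in sensitive lines, -0.17, was -0.068 without the replicate block and 0.10 with scaling to the ribosomal protein gene RPLP0. Over all lines it was 0.22 with that scaling, which brought the median of all genes from 0.02 to 0.29 in sensitive lines and to 0.18 over all lines. The HLA-C change in sensitive lines was 0.24 without the replicate block.

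With 1 line left out at a time, members called ranged from 0 to 1 in sensitive lines and 0 to 2 in resistant lines. They ranged from 0 to 1 for the difference and 0 to 2 over all lines. The members' median ranged from -0.23 to 0.077 in sensitive lines and from -0.054 to 0.19 over all lines. The HLA-C change in sensitive lines ranged from -4.57 (without OV2008, edgeR adjusted p = 0.0269, resting on the single SKOV3 pair of 216 and 8 counts because HeyA8 had 0 counts) to 0.49 (without SKOV3). With 1 family left out at a time, 0 to 1 members were called between resistant and sensitive controls, and the B2M difference ranged from -1.12 to 0.14. In the family test 0 members kept an adjusted p under 0.05 without the HeyA8 or the OV2008 family. Depth limits TAP2 (13 to 49 counts) and HLA-C (0 to 2 counts in the HeyA8 family).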
